A study of Mus musculus with 8 samples.

Results

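The genes described here code for the factors that cut nascent transcripts at their 3′ ends, add the poly(A) tail and bind it, together with proteins that affect which polyadenylation site is used. The list held 36 mouse genes in 8 role groups, chosen by gene symbol from knowledge of the pathway, with earlier results of these data known. In the table of alternative polyadenylation sites (APSs) deposited for the study, 32 of the 36 had at least 1 site, among 15349 gene symbols, and these 32 held 184 of the 56483 sites. Cstf2, Ppp1ca, Celf1 and Srsf3 had none and were not analysed here. Reads at all sites of a gene were summed for gene levels, and each site was also tested on its own.

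Gastrocnemius muscle came from male mice of 2 knockout (KO) models, which lack part of the catalytic domain of AMPKα1 or AMPKα2, the catalytic subunits of the energy sensor AMP-activated protein kinase. Each model had 2 KO and 2 wild-type (WT) mice with 1 library per mouse, and the libraries were made by WTTS-seq (whole transcriptome termini site sequencing), which reads the 3′ ends of polyadenylated fragments. By the methods description the AMPKα1 KO mice were 129S2/SvPas and about 6 weeks old and the AMPKα2 KO mice were C57BL/6 and about 8 weeks old, whereas the sample labels give C57BL/6 and an adult stage for all 8 libraries. The age of the WT mice was not given in the sources used here. The deletions are present in every tissue and the samples are whole muscle, so in these bulk libraries fewer cells of a type and less RNA per cell cannot be told apart.

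At most mammalian genes, the cleavage and polyadenylation specificity factor (CPSF) binds a hexamer, usually AAUAAA, a short distance before the cut, and the cleavage stimulation factor (CstF) binds U-rich or GU-rich sequence after it. Cleavage factors I and II complete the cutting machinery, poly(A) polymerase adds the tail, nuclear and cytoplasmic poly(A) binding proteins coat it, and Xrn2 degrades the RNA left on the polymerase. The abundance of several of these factors, among them Nudt21, Cstf2, Pcf11 and Pabpn1, is known to shift the balance between proximal and distal sites, and the muscleblind proteins Mbnl1 and Mbnl2 affect both splicing and site choice in muscle.

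The libraries held 2311242 to 3549156 reads. Reads assigned to no gene made up 1.88% to 2.85% of the AMPKα1 libraries and 15.3% to 17.9% of the AMPKα2 libraries, and the 10 sites with the most reads took 16.7% to 22.3% and 40.1% to 50.5%. Values are given as CPM (read counts scaled to a common library size) after TMM scaling over the 8 libraries, in which 3 reads, the floor used here, equalled 0.44 to 0.866 CPM per gene in the AMPKα1 libraries and 1.62 to 3.53 CPM in the AMPKα2 libraries. Replicates were far apart in the AMPKα1 KO group, where 3836 of 12620 sites with at least 50 reads in 1 library had no read in the other, against 10 of 3408 in the AMPKα2 KO group. Among member sites the same counts were 19 of 66 and 0 of 8. The gene for AMPKα1, Prkaa1, had 0 and 82 reads in its own KO libraries, where WT had 15 and 0, and 10, 8, 15 and 3 in the AMPKα2 libraries, KO first. The gene for AMPKα2, Prkaa2, had 40 and 71 reads in its own KO libraries, where WT had 87 and 62, and 568, 302, 267 and 437 in the AMPKα1 libraries. A 3′ end outside the deleted part does not check the labels. All 6 myofibre markers were detected in every group, with summed levels of 34850 to 72040 CPM in the AMPKα1 and 88690 to 126500 CPM in the AMPKα2 libraries.

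The sequences that carry the findings are those at the ends of the reads. Each line gives the 30 bases up to a site, 5′ to 3′ on the strand of the gene, from the GENCODE M21 transcripts of GRCm38, and capitals mark the hexamers AATAAA and ATTAAA, written as DNA, which were searched on the strand of the transcript only and overlap in the first Cstf2t line. The first 4 are 3′ UTR sites that hold a signal, the next 3 are sites of Mbnl1, Srrt and Cstf2t without one, and the last 2 are the ends of 2 small RNAs inside Pabpc4, where the capitals mark the ACA box.
Pabpc4 chr4:123298805-123298834 (+): aAATAAAatctccataaatatggctgaatt
Cstf2t chr19:31086564-31086593 (+): aaaATTAAATAAAaaggttgtataattaag
Srsf7 chr17:80201310-80201339 (-): acacgtttaAATAAAatgtttctaactaga
Zc3h14 chr12:98786821-98786850 (+): ctATTAAAacatttgcggcatgtttgtaca
Mbnl1 chr3:60629355-60629384 (+): tgtagatcatgttctttccgcaggtggaaa
Srrt chr5:137299759-137299788 (-): agaagaaagaagaggctgagaaggaagcca
Cstf2t chr19:31084620-31084649 (+): ggagggatgcagggagcaggtatgcaagga
Gm25788 chr4:123291445-123291474 (+): ggggcctgtctctacaactctgccACActc
Gm22154 chr4:123293253-123293282 (+): ggggcctgtctctacaactctgccACActt
Of the 77 member sites whose 30 bases lie in an annotated transcript, 32 (41.6%) held AATAAA or ATTAAA, against 8588 of 21207 (40.5%) over all such sites. The 2 hexamers can occur in the same window, and AATAAA alone was found in 27 of the 77. Member sites lay in introns (83), 3′ UTRs (53), other exons (25), within 2 kb downstream of the gene (11), antisense to it (11) or elsewhere (1).

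In each role group, the member with the most reads had the following levels. Wdr33, the CPSF subunit that contacts the hexamer together with Cpsf4, was at 57.4 and 37.0 CPM in AMPKα1 KO, 42.2 and 17.5 in their WT, 13.0 and 12 in AMPKα2 KO and 25.4 and 19.4 in their WT. Cstf1, a CstF subunit, was at 5.49 and 16.4 CPM, 4.62 and 15.2, 7.06 and 12.7, and 10.8 and 10.6 in the same order of groups. In both genes the KO and WT libraries of the AMPKα1 model overlapped, and only for Wdr33 in the AMPKα2 model were both KO libraries below both WT libraries. Pcf11, the larger subunit of cleavage factor II, was at 30.7 and 15.6, 27.7 and 11.2, 23.5 and 27, and 26.5 and 22.1 CPM. Papola, the main nuclear poly(A) polymerase, was at 96.2 and 60.1, 43.3 and 92.7, 47.1 and 51.0, and 51.4 and 46.8 CPM. Ppp1cb, a catalytic subunit of protein phosphatase 1, was at 115 and 103, 80.6 and 57.0, 62.4 and 77.9, and 63.3 and 61.8 CPM. Pcf11 and Papola overlapped between KO and WT in both models, and for Ppp1cb both AMPKα1 KO libraries lay above their WT while it overlapped in the AMPKα2 model. Mbnl1, the muscleblind protein with 23 sites, was at 249 and 272, 357 and 266, 308 and 380, and 281 and 323 CPM, and the groups overlapped in both models. Cpsf7 and Pabpc4, which had the most reads in their groups, are described with the difference between the models. Cpsf4, Nudt21, Clp1 and Papolg had 46, 89, 98 and 85 reads over all 8 libraries, and at that depth a change in AMPKα2 muscle was not tested.

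**Figure D1:**
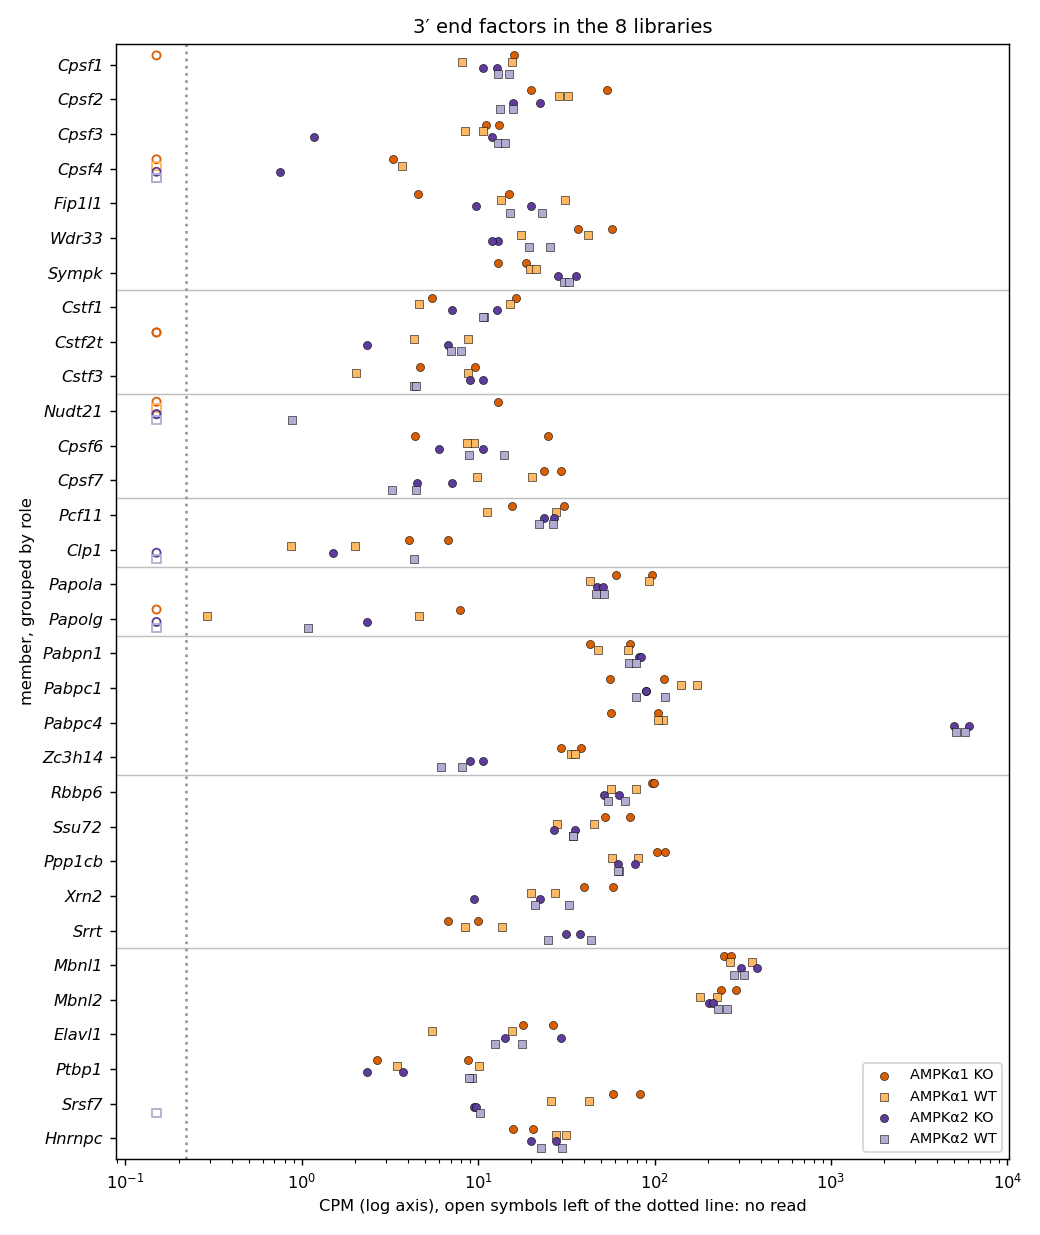
CPM of each member in each library on a log axis, with horizontal lines between the role groups in the order CPSF, CstF, cleavage factor I, cleavage factor II, poly(A) polymerases, poly(A) binding proteins, phosphatases and other factors, and RNA binding proteins, and open symbols for libraries with no read. The 4 AMPKα2 libraries of Pabpc4 lie between 5017 and 6041.5 CPM, far from every AMPKα1 library. Within each model taken alone, KO and WT libraries of most members overlap.

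The first comparison asked whether loss of AMPKα1 changed the level of any of these factors. None of the 32 members passed an adjusted p of 0.1 in edgeR's quasi-likelihood test, against 0% of all 13924 genes. At an unadjusted p under 0.05, 1 of the 32 members passed, against 4.23% of all genes, and DESeq2 called 0 members. The share of all genes or sites that DESeq2 called is not given here, for this or the later comparisons. The median log2 fold change was 0.22 for the members and -0.03 for all genes, and 9 members were higher in both KO libraries than in both WT libraries and 4 lower, against 13.6% and 18.9% of all genes. The median standard error of a member's log2 fold change was 0.65, and the dispersion of all genes in this model corresponded to a biological coefficient of variation of 104%, so that only large changes were detectable.

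Cstf2t, the intronless paralogue of the CstF subunit that binds RNA, had the lowest p. It had no read in either AMPKα1 KO library and 15 and 57 reads in the WT libraries. Its mean CPM in WT was 14.4 times that of a floor of 3 reads per KO library, and KO against WT had an edgeR p of 0.0309 and an adjusted p of 0.763. This ratio is not a lower bound, since sites with many reads in 1 AMPKα1 KO library often had none in the other. Nudt21, the cleavage factor I subunit that binds UGUA, had 0 and 88 reads in KO and none in WT, so that a single KO library held all its reads, and its edgeR adjusted p was also 0.763. Xrn2, the exonuclease that ends transcription, was at 58.0 and 39.6 CPM in KO and 27.1 and 19.8 in WT. Srsf7, an SR protein that promotes the use of proximal sites, was at 58.5 and 82.9 CPM in KO and 26.0 and 42.7 in WT. In both genes the KO libraries lay above the WT libraries, with log2 fold changes of 1.02 ± 0.52 (SE) and 1.01 ± 0.51, and both had an edgeR adjusted p of 0.763. The other members with both KO libraries above both WT libraries were Cpsf7, Clp1, Rbbp6, Ssu72, Ppp1cb, Mbnl2 and Elavl1, and those with both below were Sympk, Cstf2t, Pabpc1 and Hnrnpc. Pabpc1, the main cytoplasmic poly(A) binding protein, was at 56.1 and 113 CPM in KO and 141 and 173 in WT, a log2 fold change of -0.91 ± 0.49.

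At the level of sites, 0 of 152 member sites were called in AMPKα1, against 0.00454% of all sites. At an unadjusted p under 0.05 in edgeR's test there were 4, against 3.07% of all sites, and DESeq2 called 0. Both KO libraries lay above both WT libraries at 24 sites and below them at 22, as 9.01% and 18.2% of all sites did. These 4 were at Zc3h14, Cstf2t, Srrt and Pabpc1, each with an edgeR adjusted p of 0.543. The downstream Zc3h14 site at chr12:98787775 held 0 and 6 reads in KO against 58 and 49 in WT. The exonic Srrt site at chr5:137299759, whose sequence is shown above, had none in KO and 29 and 22 in WT. Its mean CPM in WT was 14.0 times that of the floor in KO, which is not a lower bound either. The distal site of Pabpc1 at chr15:36595660, downstream of the gene, held 151 and 559 KO reads against 372 and 905 in WT. The Cstf2t site is the signal-bearing one at chr19:31086593, which held all reads of the gene in this model. In CPM both KO libraries were below both WT libraries at each of the 4 sites.

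In AMPKα2 muscle, 28 members were tested and 0 were called by edgeR's test, against 0.484% of all 10536 genes. Of these, 1 had an unadjusted p under 0.05, against 8.4% of all genes, and DESeq2 called 0 members. The median log2 fold change was -0.06 for the members and -0.00 for all genes, 3 members were higher in both KO libraries and 6 lower, and the same held for 18.6% and 20.6% of all genes. Replicates were closer here, with a biological coefficient of variation of 26.2% and a median standard error of 0.41 for the members.

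Ptbp1, the polypyrimidine tract binding protein, competes with CstF for U-rich sequence and had the lowest p. It was at 2.35 and 3.75 CPM in KO and 9.19 and 8.83 in WT, which is 2 and 5 reads against 17 and 10. The KO libraries lay below the WT libraries, with a log2 fold change of -1.50 ± 0.63 and an edgeR adjusted p of 0.569. Wdr33 was lower in both KO libraries, with a log2 fold change of -0.88 ± 0.41 and an edgeR adjusted p of 0.606. Cstf3, the CstF scaffold subunit, was at 10.6 and 8.99 CPM in KO and 4.33 and 4.42 in WT, a log2 fold change of 1.12 ± 0.57 with an edgeR adjusted p of 0.636. Its KO reads were almost all at a site antisense to the gene, chr2:104663407, where KO had 9 and 10 reads against 1 and 5. On the strand of Cstf3 itself KO had 0 and 2 reads against 7 and 0, too few to test. Xrn2 was at 9.42 and 22.5 CPM in KO and 21.1 and 32.7 in WT, so that its groups overlapped, and the log2 fold change was -0.69 ± 0.45. It was -0.26 without KO replicate 1, -0.37 without WT replicate 2 and -1.48 without KO replicate 2, with edgeR adjusted p values of 0.93, 0.945 and 0.381.

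Of 75 member sites tested in AMPKα2, 0 were called, against 0.056% of all sites. At an unadjusted p under 0.05 in edgeR's test there were 4, against 7.59% of all sites, and DESeq2 called 0. Both KO libraries lay above both WT libraries at 8 sites and below them at 20, as 18.8% and 20.9% of all sites did. The lowest p was at an intronic Mbnl1 site, chr3:60625811, with 5 and 14 KO reads against 3 and 0 in WT. The 3′ UTR site of Mbnl1 at chr3:60629081 held 12 and 25 KO reads against 13 and 6. At the proximal 3′ UTR site of Mbnl2, chr14:120429630, 33 and 81 KO reads stood against 153 and 97. The site of Ptbp1 at chr10:79864433 is its only site in the table and repeats the gene's reads. In CPM, both KO libraries were above both WT libraries at the sites of Mbnl1 and below them at those of Mbnl2 and Ptbp1, and edgeR adjusted p was 0.626 to 0.656 for the 4 sites.

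**Figure D2:**
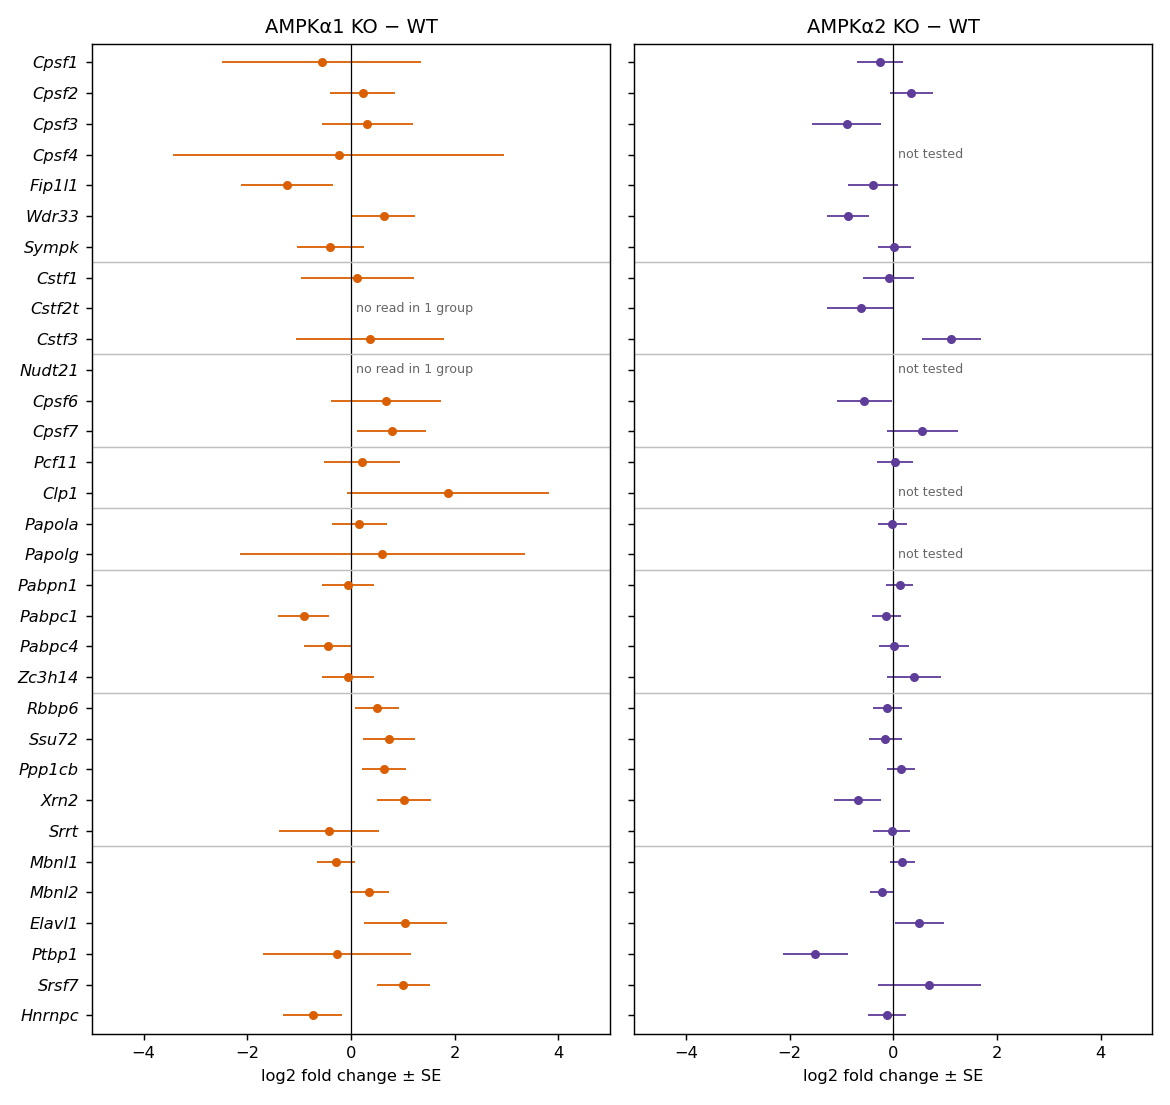
Log2 fold changes of the members, KO against WT, in AMPKα1 (left) and AMPKα2 (right), with bars of 1 SE from edgeR's test, where members with no read in 1 group or too few reads to test carry a note. No member passes an adjusted p of 0.1, and the bars are longer in AMPKα1, with a median SE of 0.65 against 0.41.

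Whether the KO effects of the models differed was tested with an interaction term in a fit of the 8 libraries. It was called by edgeR for 0 of 32 members, against 0.0586% of all genes, and for 0 of 184 member sites, against 0.143% of all sites. At an unadjusted p under 0.05 there were 2 members and 19 sites, against 6.93% of all genes and 6.96% of all sites, and DESeq2 called 0 members and 1 site. The members with the lowest p were Cstf2t, whose interaction rests on the KO libraries of AMPKα1 with no read, Xrn2 at -1.77 ± 0.75 on the log2 scale, Wdr33 at -1.52 ± 0.77 and Nudt21, whose reads come from 1 library. Their edgeR adjusted p values were 0.466, 0.707, 0.756 and 0.764. Xrn2 was higher in both AMPKα1 KO libraries than in their WT and overlapped in AMPKα2, and Wdr33 overlapped in AMPKα1 and was lower in both AMPKα2 KO libraries.

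The site with the lowest p for the interaction, and the one that DESeq2 called, was the exonic Srrt site, which had 10 and 17 reads in AMPKα2 KO and 24 and 12 in their WT beside none in the AMPKα1 KO libraries. Its edgeR adjusted p was 0.195. Without AMPKα1 KO replicate 1 the adjusted p was 0.0373, and without replicate 2 it was 0.0547. The next 3 sites had an edgeR adjusted p of 0.516 to 0.553. The most distal 3′ UTR site of Cpsf2, chr12:102005532, had 0, 0, 13 and 30 reads in AMPKα1 and 3, 2, 1 and 2 in AMPKα2, KO libraries first. The exonic Pcf11 site at chr7:92661412 had 0, 0, 15 and 0 reads and 7, 7, 4 and 1 reads in the same order. At the downstream Zc3h14 site there were 4, 6, 5 and 2 reads in AMPKα2. Each of the 3 had at least 1 library with no read in the AMPKα1 KO group, the group whose replicates were far apart.

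The third comparison was between the models, over KO and WT libraries together, and here the gene deleted, strain, age and the making of the libraries cannot be told apart. Of the 32 members, 7 were called by edgeR's test, against 25.6% of all 15349 genes. Of these, 3 were higher in the AMPKα2 libraries and 4 lower, against 18.1% and 7.51% of all genes, and the median log2 difference was -0.25 for the members and 0.00 for all genes. The libraries of the models did not overlap for 3 members higher and 3 lower in AMPKα2, against 17.9% and 8.44% of all genes. The differences are relative to the typical gene. When library totals alone set the scale, the median of all genes moved by -1.73. On that scale 1 member was higher (Pabpc4) and 24 were lower, against 1411 higher and 6655 lower of all 15349 genes. Srrt and Cstf2t were no longer called, at 0.08 and 2.17. Without the KO libraries, 2 members were called, Pabpc4 and Zc3h14.

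Among the members that were higher, Srrt (also known as Ars2), which links the cap binding complex to termination and 3′ processing, was at 10.03, 6.75, 13.6 and 8.46 CPM in the AMPKα1 libraries and at 37.7, 31.5, 43.8 and 24.7 CPM in the AMPKα2 libraries. The models did not overlap, and the log2 difference was 1.84 ± 0.38 with an edgeR adjusted p of 0.00828. Cstf2t was at 0, 0, 4.33 and 8.76 CPM and at 2.35, 6.75, 7.03 and 7.95 CPM. Its models overlapped, and the called difference of 3.62 ± 0.95 (edgeR adjusted p = 0.029) became 0.20 when only WT libraries were compared, and it was not called without AMPKα2 KO replicate 2 or AMPKα2 WT replicate 2. Pabpc4, a cytoplasmic poly(A) binding protein, was the third and is described below.

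Among those that were lower, Zc3h14, a nuclear poly(A) binding protein with zinc fingers, was at 29.5, 38.1, 33.8 and 35.5 CPM in AMPKα1 and at 10.6, 8.99, 8.11 and 6.18 CPM in AMPKα2. The models did not overlap, with a log2 difference of -2.02 ± 0.35 and an edgeR adjusted p of 0.00326. Cpsf7, the alternative large subunit of cleavage factor I, was at 29.5, 23.5, 9.82 and 20.1 CPM and at 7.06, 4.50, 3.24 and 4.42 CPM, also without overlap, with a log2 difference of -2.10 ± 0.49 and an edgeR adjusted p of 0.015. The AMPKα2 values of Cpsf7 rest on 5 to 6 reads per library. Srsf7 was at 58.5, 82.9, 26.0 and 42.7 CPM and at 9.42, 9.74, 10.3 and 0 CPM, with no overlap, a log2 difference of -2.74 ± 0.65 and an edgeR adjusted p of 0.0161. Without AMPKα2 WT replicate 1 the difference was -6.45, and without AMPKα2 KO replicate 1 or 2 the edgeR adjusted p was 0.102 or 0.101. Wdr33 was lower by the smallest amount, at -1.16 ± 0.38 with an edgeR adjusted p of 0.0649, and its models overlapped. Wdr33 was not called without AMPKα1 WT replicate 1 or without any 1 of the 4 AMPKα2 libraries. In every library with reads, most reads of Srsf7 were at its 3′ UTR site shown above, which had 337, 563, 89 and 266 reads in AMPKα1 and 8, 13, 19 and 0 in AMPKα2. Cpsf6, the other large subunit of cleavage factor I, had a log2 difference of -0.25 ± 0.62, and the CstF subunit Cstf1 had -0.02 ± 0.61. Cstf3 was at 0.07 ± 0.71 with its antisense site and at -2.19 (edgeR adjusted p = 0.284) with sites on its own strand only. Mbnl1 and Mbnl2 had the smallest standard errors of all members, 0.22 and 0.21, and log2 differences of 0.18 and -0.03.

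**Figure D3:**
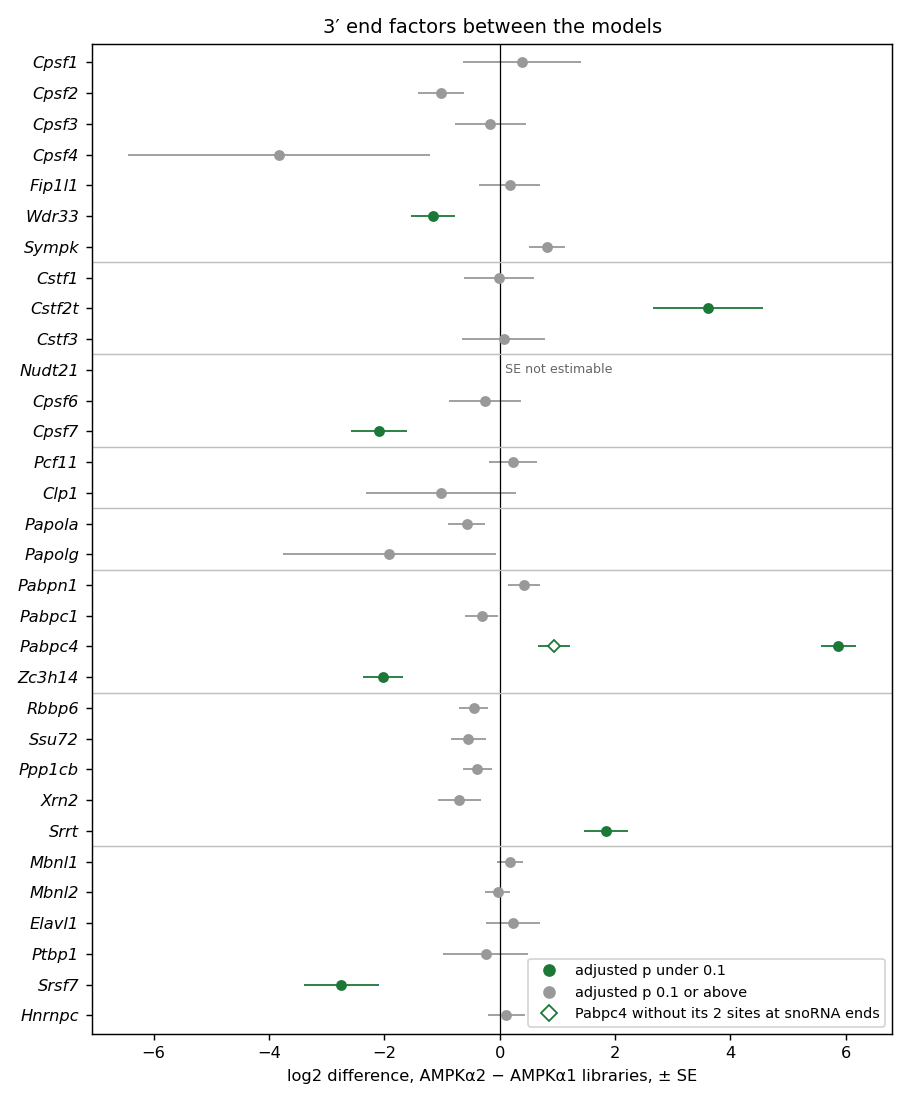
Log2 difference of each member between the AMPKα2 and the AMPKα1 libraries after TMM scaling, with bars of 1 SE, members in the order of the role groups, and those with an adjusted p under 0.1 in green. Pabpc4 stands at 5.87 with all its sites and at 0.94 without its 2 sites at snoRNA ends (diamond), and the standard error of Nudt21 could not be estimated.

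Pabpc4 (chr4:123262351-123298925, + strand, GRCm38) differed most. It was at 56.6, 105, 112 and 105 CPM in the AMPKα1 libraries and at 6041.5, 5017, 5096 and 5765 CPM in the AMPKα2 libraries, KO first, with a log2 difference of 5.87 ± 0.31 and an edgeR adjusted p of 3.4e-06. Within each model KO and WT overlapped, with log2 fold changes of -0.44 ± 0.47 in AMPKα1 and 0.02 ± 0.29 in AMPKα2. Of its 5 sites, 2 in introns held 95.4% to 97.7% of its reads in the AMPKα2 libraries. The site at chr4:123291478 had 3497, 4652, 6629 and 4771 reads there, the site at chr4:123293286 had 1515, 1733, 2488 and 1560, and neither had a read in any AMPKα1 library. Their mean CPM in AMPKα2 was 7321 and 2755 times that of a floor of 3 reads per AMPKα1 library.

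Both sites lie 4 bases past the 3′ end of a small nucleolar RNA (snoRNA) gene within the intron, Gm25788 (chr4:123291344-123291474) and Gm22154 (chr4:123293152-123293282). H/ACA snoRNAs, which guide pseudouridylation, carry an ACA box 3 bases before their 3′ end and are mostly made from the introns of host genes. Both sequences shown above hold ACA at that place. The 2 snoRNAs are 131 bases long and differ at 4 of them (96.9% identity), so reads could be divided between them in error. Over the whole table there were 216 sites within 10 bases of the 3′ end of an annotated snoRNA, and they held 0.00584% to 0.0113% of the reads in the AMPKα1 libraries and 2.65% to 3.22% in the AMPKα2 libraries.

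The remaining 3 sites of Pabpc4 gave 56.6, 105, 112 and 105 CPM in AMPKα1 and 140, 232, 166 and 174 CPM in AMPKα2, which do not overlap. The log2 difference was 0.94 ± 0.28 with an edgeR adjusted p of 0.0442 once sites at small RNA ends had been left out for all genes. This value is relative to the typical gene, and library totals alone were not used as the scale for these 3 sites. Their reads were 361, 716, 387 and 682 in AMPKα1 and 119, 309, 307 and 197 in AMPKα2. Most of these reads were at an exonic site, chr4:123282850, with 269, 599, 328 and 628 reads in AMPKα1 and 109, 304, 292 and 190 in AMPKα2. The 3′ UTR site that bears the AATAAA shown above had 92, 117, 59 and 31 reads in AMPKα1 and 9, 5, 15 and 7 in AMPKα2. In CPM the models overlapped at the 3′ UTR site, with a log2 difference of -0.79 ± 0.67 (edgeR adjusted p = 0.526), so the annotated mRNA end of Pabpc4 was not called higher in AMPKα2. The exonic site was called, at 1.23 ± 0.36 with an edgeR adjusted p of 0.0165, relative to the typical site. The KO effect in AMPKα2 without the snoRNA ends was 0.12 ± 0.27.

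**Figure D4:**
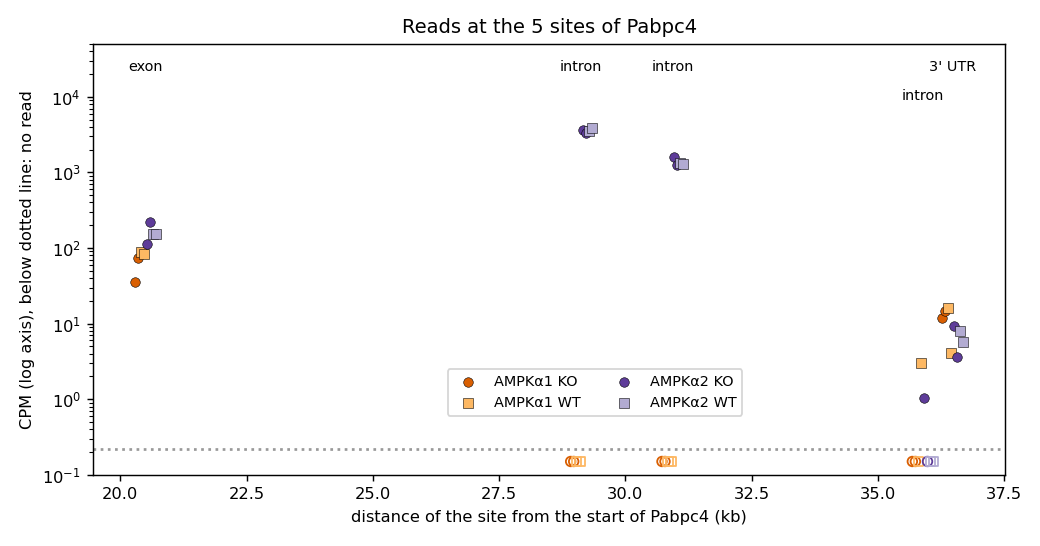
CPM at the 5 sites of Pabpc4 in each library on a log axis, against the distance of the site from the start of the annotated gene in kb, with open symbols below the dotted line for libraries without a read and the location of each site at the top. The 2 intronic sites at snoRNA ends lie between 1241 and 3895 CPM in the 4 AMPKα2 libraries and have no read in the 4 AMPKα1 libraries, while the exonic and 3′ UTR sites have reads in all 8.

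Over all member sites, 46 of 184 were called between the models, against 25.5% of all 56483 sites. Of these, 33 were higher in AMPKα2 and 13 lower, against 22.5% and 2.96% of all sites. With library totals alone, the balance turned to 19 higher and 44 lower member sites, and over all sites to 8361 higher and 9049 lower. The 33 came from 15 genes, and 27 of them (81.8%) lay outside 3′ UTRs and the 2 kb downstream, as did 5 of the 13 lower ones (38.5%) and 120 of all 184 member sites (65.2%). The difference in location was not tested. In 17 of the 33 no AMPKα1 library had a read. The models did not overlap at 33 sites that were higher and 15 that were lower in AMPKα2, against 21.1% and 4.43% of all sites. Beside the 2 sites in Pabpc4, those with the lowest p were at Pabpc1, Mbnl1, Papola and Elavl1.

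At the exonic Pabpc1 site at chr15:36608892 there were 5.35, 3.21, 0.537 and 0.663 CPM in the AMPKα1 libraries and 34.6, 29.4, 35.4 and 19.6 CPM in the AMPKα2 libraries, a log2 difference of 4.16 ± 0.57 with an edgeR adjusted p of 3.01e-05. The distal site of the same gene went the other way, at -1.19 ± 0.42 with an edgeR adjusted p of 0.05, and the gene as a whole had a log2 difference of -0.31 ± 0.29. The next 3 sites had no read in the AMPKα1 libraries. Mbnl1 chr3:60629081 had 12, 25, 13 and 6 reads in AMPKα2, a mean CPM 21.5 times that of a floor of 3 reads per AMPKα1 library. Papola chr12:105837032 had 3, 10, 29 and 10, a mean 17.2 times that floor. Elavl1 chr8:4324577, in an intron of the gene for the AU-rich element binding protein HuR, had 13, 10, 8 and 6, a mean 15.2 times that floor. The main 3′ UTR site of Mbnl1, at chr3:60629384, had 1417, 1402, 1035 and 1378 reads in AMPKα1 and 177, 398, 393 and 283 in AMPKα2, with a log2 difference of 0.16 ± 0.31. The exonic Cstf2t site shown above had 2, 5, 6 and 8 reads in AMPKα2 and none in AMPKα1, a mean 7.82 times the floor. These ratios are not lower bounds, since the error of the few AMPKα2 reads and of the scaling is left out.

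Counting all member reads except those at snoRNA ends, 3′ UTRs and the 2 kb downstream held 64.3%, 73.4%, 72.2% and 72.5% in the AMPKα1 libraries and 60.0%, 61.2%, 62.9% and 64.5% in the AMPKα2 libraries. AMPKα1 KO replicate 1, at 64.3% (95% Wilson interval 63.3% to 65.3%), lay within the interval of AMPKα2 WT replicate 2 (62.2% to 66.8%), so the models overlapped. The AMPKα2 libraries had fewer such reads, 1096 to 2576 against 4882 to 10944, and showed more member sites, 129 to 151 against 99 to 122. This held for the whole table as well, with 35470 to 43686 sites with a read against 28006 to 33517. At a common depth of 1096 member reads, 88.9, 90.0, 101.9 and 96.4 sites would be expected in the AMPKα1 libraries and 129, 120.6, 127.2 and 118.7 in the AMPKα2 libraries, which do not overlap. This treats each read as a separate molecule. PCR copies could not be told apart, and many AMPKα1 KO sites had reads in 1 replicate only, so equal reads may not be equal numbers of molecules.

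Shares of single sites within a gene are given for the 5 members with at least 1000 reads and 2 sites over 15% of them, again without snoRNA ends. In Pabpn1, the nuclear poly(A) binding protein, the 3′ UTR site at chr14:54898108 held 61.5%, 78.8%, 90.2% and 79.7% of the reads in AMPKα1 and 100%, 97.3%, 97.0% and 97.8% in AMPKα2. In Rbbp6, a ubiquitin ligase that associates with the cleavage complex, the distal 3′ UTR site at chr7:123001975 held 32.0%, 34.7%, 24.6% and 26.8% in AMPKα1 and 65.9%, 59.5%, 65.9% and 61.3% in AMPKα2. In both genes the models did not overlap. In Ppp1cb the more proximal of the main 3′ UTR sites, chr5:32492756, held 40.2% and 31.5% in AMPKα1 KO and 65.2% and 69.3% in their WT, against 22.6% to 36.5% in AMPKα2. In Ppp1cb, Pabpn1 and Rbbp6 the KO and WT shares of AMPKα1 were apart at both main sites. In Mbnl2 they were apart at the distal site, chr14:120431701, with 25.5% and 31% in KO and 56.8% and 37.5% in WT. In AMPKα2 they were apart at 1 main site each of Ppp1cb, Mbnl2 (the proximal site) and Papola (the intronic site). The Ppp1cb site, chr5:32493715, held 26.4% and 28.8% in KO and 35.9% and 44.3% in WT. The Papola site held 10% and 20.6% in KO and 9.47% and 3.77% in WT. At each of these AMPKα2 sites, intervals of KO and WT libraries overlapped. Differences in share were not tested, and no difference in site level between KO and WT was called at any of the sites named here. How often such shares are apart over all genes was not counted, for KO against WT or between the models. In Mbnl2 the proximal site held 18.7% to 56.1% in AMPKα1 and 19% to 36% in AMPKα2, and in Papola the distal 3′ UTR site held 15.3% to 47.4% and 29.5% to 50%, so that the models overlapped in both.

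**Figure D5:**
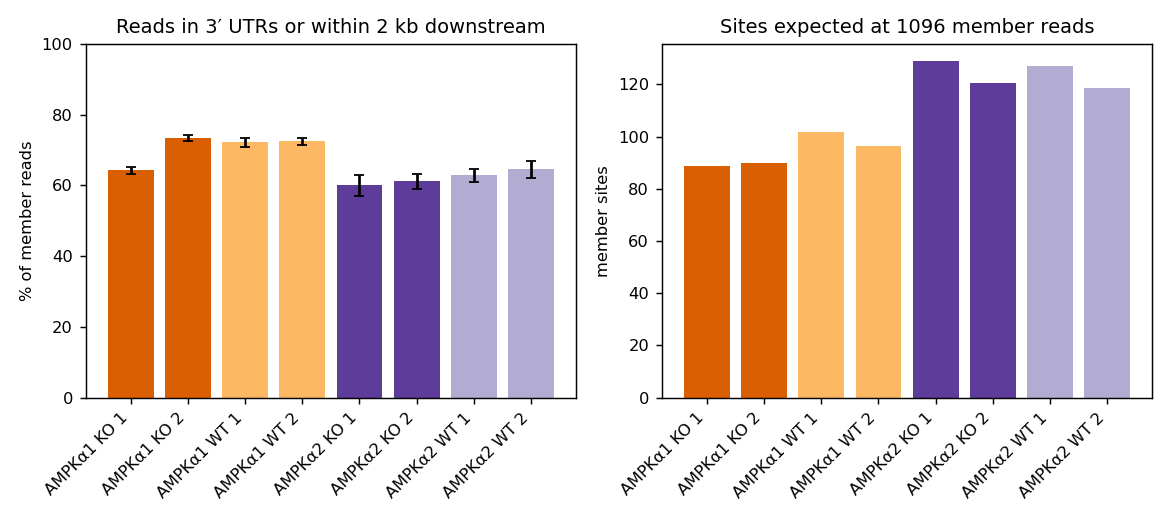
Left, percentage of member reads, without those at snoRNA ends, that lie in 3′ UTRs or within 2 kb downstream in each library, with 95% Wilson intervals as bars. Right, the number of member sites expected in each library at a common depth of 1096 member reads, each treated as a separate molecule, which is 88.9 to 101.9 in AMPKα1 and 118.7 to 129 in AMPKα2.

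Other factors around 3′ ends were counted from 7 lists with 93 genes, of which 79 were tested in AMPKα1, 68 in AMPKα2 and 83 over 8 libraries. None was called for KO against WT in either model or for the interaction by edgeR's test, and 0, 4 and 1 had an unadjusted p under 0.05, against 4.23%, 8.4% and 6.93% of all genes. DESeq2 calls were counted for the members only. Between the models, 7 of 83 were higher and 10 lower in AMPKα2, against 18.1% and 7.51% of all genes. By list these were 1 and 2 of 14 genes of the Integrator complex, 0 and 1 of 14 deadenylase genes, 3 and 1 of 17 elongation and termination genes, 0 and 1 of 4 histone processing genes, 3 and 5 of 18 other regulators, and none of 14 genes of the nuclear exosome or of 2 genes of the U1 snRNP. Tardbp, which codes for TDP-43, had no read in AMPKα1 and 11.2 to 26.0 CPM in AMPKα2, and so did the elongation kinase gene Cdk9, with 2.70 to 5.89 CPM, and Asun of the Integrator, with 0.541 to 83.0 CPM. Rbfox2, a splicing regulator of muscle, was at 27.1 to 66.9 CPM and 178 to 592 CPM, 2.75 ± 0.38 higher on the log2 scale. Supt5 and Scaf4, from the list of elongation and termination genes, were also higher, by 1.75 ± 0.50 and 5.94 ± 1.45. Lower in AMPKα2 were Pan2, a deadenylase subunit, with a log2 difference of -3.73 ± 0.90, the cytoplasmic poly(A) polymerase Papd4 at -2.53 ± 0.63, the Integrator genes Ints2 and Ints10 at -4.41 ± 1.34 and -3.48 ± 1.13, and Slbp, which binds the histone stem-loop, at -4.77 ± 1.59.

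Marker genes of myofibres and other cells were counted between the models as well. Of the lists, 3 of 6 myofibre, 3 of 4 erythroid, 2 of 4 macrophage and 1 of 4 smooth muscle markers were higher in AMPKα2 by edgeR's test. Lower were 2 of 4 fibroblast, 1 of 4 endothelial and 1 of 3 Schwann cell markers. Over all genes 18.1% were called higher and 7.51% lower, and a single call in so short a list says little beside these shares. Summed erythroid levels were 211 to 480 CPM in AMPKα1 and 1354 to 2716 CPM in AMPKα2, and summed macrophage levels were 21.4 to 39.0 CPM and 138 to 196 CPM. Summed fibroblast levels were 4818 to 6987 CPM and 2239 to 4997 CPM. None of 4 adipocyte markers was called, and of 2 satellite cell markers 1 was in the table, at 0 to 15.8 CPM. No marker was called for KO against WT in either model. The part of these cells in the differences of the members was not tested.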

How the data were processed

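The authors filtered reads with the FASTX Toolkit 0.0.13.1, trimmed leading Ts, mapped reads with TMAP 3.4.1 (GRCm38.p5 per the labels), clustered read ends within a window and assigned sites to genes with Cuffcompare 2.2.1. The deposited table holds raw counts of reads per site and library, without normalization, for sites with at least 16 reads over 8 libraries. How reads that map to several places were treated was not given in the sources used here.

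Counts were tested in edgeR 4.0.16 (R 4.3.3, limma 3.58.1): TMM scaling, robust quasi-likelihood fits, at least 16 reads over the libraries fitted, and Benjamini-Hochberg adjustment over all genes or sites (adjusted p under 0.1). Groups came from the sample labels, with 2 mice each. KO was compared with WT within each model from its 4 libraries, and the interaction and the difference between models over 8. CPM values in the text use the scaling over 8 libraries, and counts of groups that do not overlap use the scaling of each fit. Standard errors were derived from F statistics and are approximate. An exact permutation test of 2 mice against 2 cannot go below p = 0.333. Intervals and the floor of 3 reads cover counting error only, since the libraries carried no molecular identifiers and PCR copies are not separate molecules. Locations and sequences came from GENCODE M21, and members were matched by symbol; genes with overlapping or antisense neighbours may share reads. Code was tested on simulated data. Alternatives were DESeq2 1.42.0, other scaling, filters, thresholds, strand, merged sites, single libraries left out and a replicate block; leaving out small RNA ends and scaling by library totals alone were chosen after seeing the data. Same-numbered KO and WT libraries come from different mice.

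Values in every library are given for Prkaa1 and Prkaa2, members and sites called (at most 6 per comparison), the 4 with the lowest p per comparison, and the member with the most reads per role. Of other lists, at most 3 called genes per comparison are named. Further genes and sites were chosen after their values were seen. Members and lists were chosen with earlier results of these data known. Tables and figures were made in Python 3.11.15 with matplotlib 3.10.9, pandas 2.3.3, scipy 1.17.1 and numpy 2.4.6.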

Additional observations from a re-analysis of the deposited data

Results flagged for a closer look

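In 2 of 32 members (6.25%, against 5.15% of all genes) both KO libraries lay above both WT libraries in AMPKα1 and below them in AMPKα2, on the scale over 8 libraries. Cpsf3, the endonuclease that cuts the transcript, was at 11.1 and 13.2 CPM in AMPKα1 KO, 10.7 and 8.46 in their WT, 1.18 and 12 in AMPKα2 KO and 13.0 and 14.1 in their WT. The interaction on the log2 scale was -1.32, with an edgeR adjusted p of 0.963, and on the scaling of the AMPKα1 libraries alone the KO and WT libraries overlapped. Mbnl2, a muscleblind protein, was at 237 and 291 CPM in AMPKα1 KO, 180 and 226 in their WT, 205 and 216 in AMPKα2 KO and 230 and 258 in their WT. Its interaction was -0.59, with an edgeR adjusted p of 0.868.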

How the results depend on the processing

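KO against WT kept 0 called members and 0 called sites in AMPKα2 under all alternatives and in AMPKα1 under all but 1: with all 8 libraries in 1 fit, 1 site was called in AMPKα1 (Srrt, chr5:137299759). For the interaction, DESeq2 called 1 site, and leaving out single libraries gave 0 to 1 members (Cpsf1 without AMPKα1 KO replicate 2) and 0 to 5 sites (2 without AMPKα1 KO replicate 1, 5 without replicate 2, 1 without AMPKα1 WT replicate 2). Between the models, 7 members and 46 sites became 2 and 12 with WT libraries alone, 25 members with library totals alone, and 4 to 11 members and 25 to 58 sites when single libraries were left out: 11 members without AMPKα1 KO replicate 2, 4 without AMPKα2 KO replicate 2, and 25, 27, 26 and 28 sites without AMPKα2 KO replicates 1 and 2 and WT replicates 1 and 2. Pabpc4 and Zc3h14 stayed called in each of these. With library totals alone, 1411 of all 15349 genes were called higher in AMPKα2 and 6655 lower. The replicate numbers do not pair the mice (same-number correlations of 0.034 and 0.004 over 15349 genes), and with the replicate block 1 member (Pabpc4) and 20 sites were called between the models and none for KO. RLE factors moved the median of all sites by -0.19 between the models and by 0.13 in AMPKα1, and library totals alone moved that of all genes by 0.25 in AMPKα1, -0.18 in AMPKα2 and -1.73 between the models, where the share of higher calls went from 70.7% to 17.5%. Over the 36 named fold changes, no direction was reversed, and values lost a call in 4 instances when a library was left out and in 11 under the other alternatives, and gained 1 in 3 and 2. The cause was not tested. Depth limited the AMPKα2 libraries most, where 4 members had too few reads to test.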
